A study of Mus musculus with 18 samples.

Results

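The Ifi200 or PYHIN family is a cluster of interferon-inducible genes on mouse chromosome 1 whose proteins bind nucleic acids. The members were chosen by a list of 9 family genes, Ifi203, Ifi204, Ifi205, Ifi207, Ifi209, Ifi211, Ifi213, Mndal and Aim2. Each gene was read from the probe set with the highest mean over all arrays. A probe set with 1 gene symbol was found for 7 of the 9, of 19505 genes measured in all, and Ifi203 and Ifi205 are not analysed here. Probe sets with several symbols were not used, so whether the array reads these 2 genes is not known. Ifi208 and Ifi214, 2 PYHIN genes outside the list, were also measured. The family was proposed with earlier results of these data known, among them the difference of Ifi211 at 24 weeks, which therefore is no independent support.

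Transcript signals came from 18 arrays, 1 per mouse, of preparations labelled as bone marrow mesenchymal cells (BM-MSCs), which are known to give rise to bone and fat and to shelter blood stem cells. The groups were 4 NeuT mice and 4 BALB/c control mice at 24 weeks of age, and 5 NeuT mice and 5 BALB/c control mice at 12 weeks. NeuT mice are known as carriers of an activated rat Erbb2 oncogene expressed from a mammary tumour virus promoter. By their labels the NeuT mice bore tumours at 24 and at 12 weeks, so transgene and tumour cannot be told apart. The cells came from femurs and tibias and were depleted with beads against CD45, Ter119, CD11b, CD11c, CD3, Gr1 and B220, in all 4 groups alike. The values are RMA signals on the log2 scale, and no detection calls came with them.

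The labelled cell type was checked against its markers. Itgb1 and Cd44, the genes of the antigens by which the cells were characterised (CD29 and CD44), exceeded the 95th percentile of negative control probe sets (10.46) on all 18 arrays. So did Ptprc, which encodes the depleted antigen CD45, and the neutrophil granule genes Elane and Mpo. Itgam, which encodes the depleted antigen CD11b, did so on 4 of the 18, with signals of 9.74 to 10.67. Of the stromal genes Pdgfrb, Col1a2, Cxcl12 and Lepr, none exceeded that level on any array. Signals of Pdgfrb (7.96 to 8.92), Col1a2 (8.25 to 8.86) and Cxcl12 (9.04 to 9.45) lay above the controls' median (7.35) throughout. Those of Lepr (5.20 to 5.80) lay under it. Signals of the blood cell genes Ptprc, Elane and Mpo thus stood out from the controls on every array. Absence of stromal transcripts is not shown. Which cells made up the preparations is not settled by these genes. The label is therefore kept as a label, and every value describes the whole preparation. In such bulk samples fewer cells of a type and less RNA per cell cannot be told apart.

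PYHIN proteins pair a pyrin domain, which binds other pyrin domains, with a HIN domain, which binds DNA. AIM2 binds double-stranded DNA in the cytosol and recruits the adaptor ASC, which activates caspase-1 in an inflammasome. The p204 protein of Ifi204 is known as a mouse counterpart of human IFI16 that signals through STING to the type I interferon genes. Transcription of the family is induced by interferons, which act through the factor complex ISGF3 on interferon-stimulated response elements (ISRE) in promoters, and the family is well known in macrophages and other myeloid cells.

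Promoters are shown first because the family is known for interferon induction and because the letters of the element recur upstream of most of these genes. RefSeq promoter windows of build GRCm38.p6, from 250 bases before to 50 after an annotated start, were matched by symbol for 8 of the 9 members, and Ifi204 had no entry. Both strands were searched for the ISRE core GAAANNGAAA. It was found in 6 of the 8 members, and in 4 of the 6 that were measured, against 3.44% of all 32851 windows and 3.99% of the 27025 genes. Some of the members' windows are near copies of each other, as given below. The matches are therefore not independent, and the shares are no test. The capitals mark the core, with 15 bases on either side, on the gene's own strand from 5′ to 3′, all on chromosome 1. Measured members with a core, and Ifi214 and Ifi208 for comparison, read as follows.
Ifi211: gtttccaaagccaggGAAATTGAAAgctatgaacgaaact
Ifi207: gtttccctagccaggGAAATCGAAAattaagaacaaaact
Mndal: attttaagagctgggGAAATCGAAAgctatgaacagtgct
Ifi213: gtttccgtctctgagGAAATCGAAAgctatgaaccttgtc
Ifi208: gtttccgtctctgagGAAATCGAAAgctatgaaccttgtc
Ifi214: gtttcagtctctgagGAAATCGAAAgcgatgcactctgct

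The core began 37 bases before the annotated start in Ifi211, 41 in Ifi207, 36 in Mndal (at the first of its 2 annotated starts), 73 in Ifi213, 58 in Ifi208 and 79 in Ifi214. The window of the second Mndal start also held a core, on the opposite strand. Aim2 and Ifi209 had none. The Ifi209 window aligned with that of Ifi214 at 96% identity, and its stretch at the place of the core is shown in lower case because it lacks the motif.
Ifi209: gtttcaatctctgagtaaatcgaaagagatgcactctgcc
Counted from 1 at the first base of the core, with the base of Ifi214 first, the only difference inside it was G1T. The other motif searched, the interferon gamma activation site TTCNNNGAA, is in 8.3% of all windows. It was in none of the members' windows. The reference is of the C57BL/6J strain, the bases of BALB/c mice were not analysed here, and a match is a description of letters, not of binding.

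Ifi211 had the largest NeuT difference of the measured members at 24 weeks, and Ifi207 had the promoter closest to it among measured members with an entry (88.4% identity over the aligned bases). Their 250 bases before the annotated start are shown whole, on the minus strand, at chr1:173913047-173913296 for Ifi211 and chr1:173741810-173742059 for Ifi207.
Ifi211 upstream: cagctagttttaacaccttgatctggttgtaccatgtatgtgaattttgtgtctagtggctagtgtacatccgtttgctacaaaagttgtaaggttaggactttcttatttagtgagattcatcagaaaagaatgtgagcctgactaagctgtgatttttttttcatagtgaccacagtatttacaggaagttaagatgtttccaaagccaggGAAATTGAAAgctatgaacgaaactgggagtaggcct
Ifi207 upstream: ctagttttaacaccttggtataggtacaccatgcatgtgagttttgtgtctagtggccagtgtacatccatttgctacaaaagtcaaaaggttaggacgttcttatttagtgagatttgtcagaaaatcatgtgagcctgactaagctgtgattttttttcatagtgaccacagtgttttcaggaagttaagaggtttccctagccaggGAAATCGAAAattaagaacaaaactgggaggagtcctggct

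Promoters of other pairs were closer still. Identity was 98.9% for Ifi213 and Ifi208, 97.6% for Mndal and Ifi203 (at its second annotated start) and 94% for Ifi211 and Ifi205. Probe sets of near-identical family genes may share signal, and no probe sequences were used here, so the value of 1 gene can hold signal of another, Ifi203 and Ifi205 included.

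**Figure D1:**
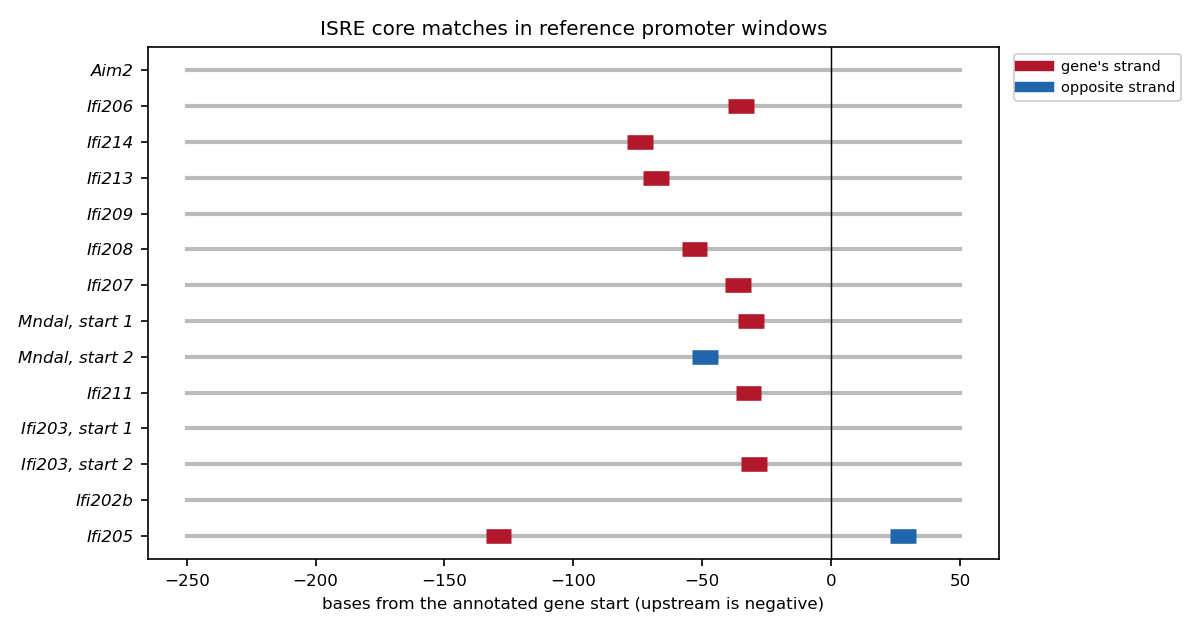
Matches to the ISRE core (coloured blocks) along the reference promoter windows (grey lines) of PYHIN genes, in bases from the annotated start, with genes in chromosome order from top to bottom. Ifi206, Ifi207, Mndal (start 1), Ifi211 and Ifi203 (start 2) have a core 35 to 41 bases upstream, and Aim2, Ifi209 and Ifi202b have none.

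Against the negative control probe sets (median 7.35 over all arrays), 5 of the 7 measured members, Ifi204, Ifi207, Ifi209, Mndal and Aim2, lay above the control median on all 18 arrays. Mndal was also above the controls' 95th percentile on 18 arrays and Ifi209 on 16. Ifi204, Ifi207 and Aim2 did not exceed that percentile on any array. Outside the list Ifi214, with signals of 7.54 to 8.40, lay above the control median on all 18 arrays but under that percentile. Ifi213 was under the control median on every array, with signals of 6.52 to 7.12, as was Ifi208, so neither was told apart from background. Ifi211 exceeded it in 4 of 4 NeuT and 0 of 4 BALB/c mice at 24 weeks, and in 2 of 5 NeuT and 0 of 5 BALB/c mice at 12 weeks. Against the median of each array's own controls, a setting chosen after seeing the data, it was above in 3 of 4 NeuT and 0 of 4 BALB/c mice at 24 weeks, and in 1 of 5 NeuT and 0 of 5 BALB/c mice at 12 weeks, and the other members' counts against the median were the same. The differences given for Ifi211 are therefore differences of signal, and how far its transcript changed is not known. Levels of different probe sets are not compared.

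**Figure D2:**
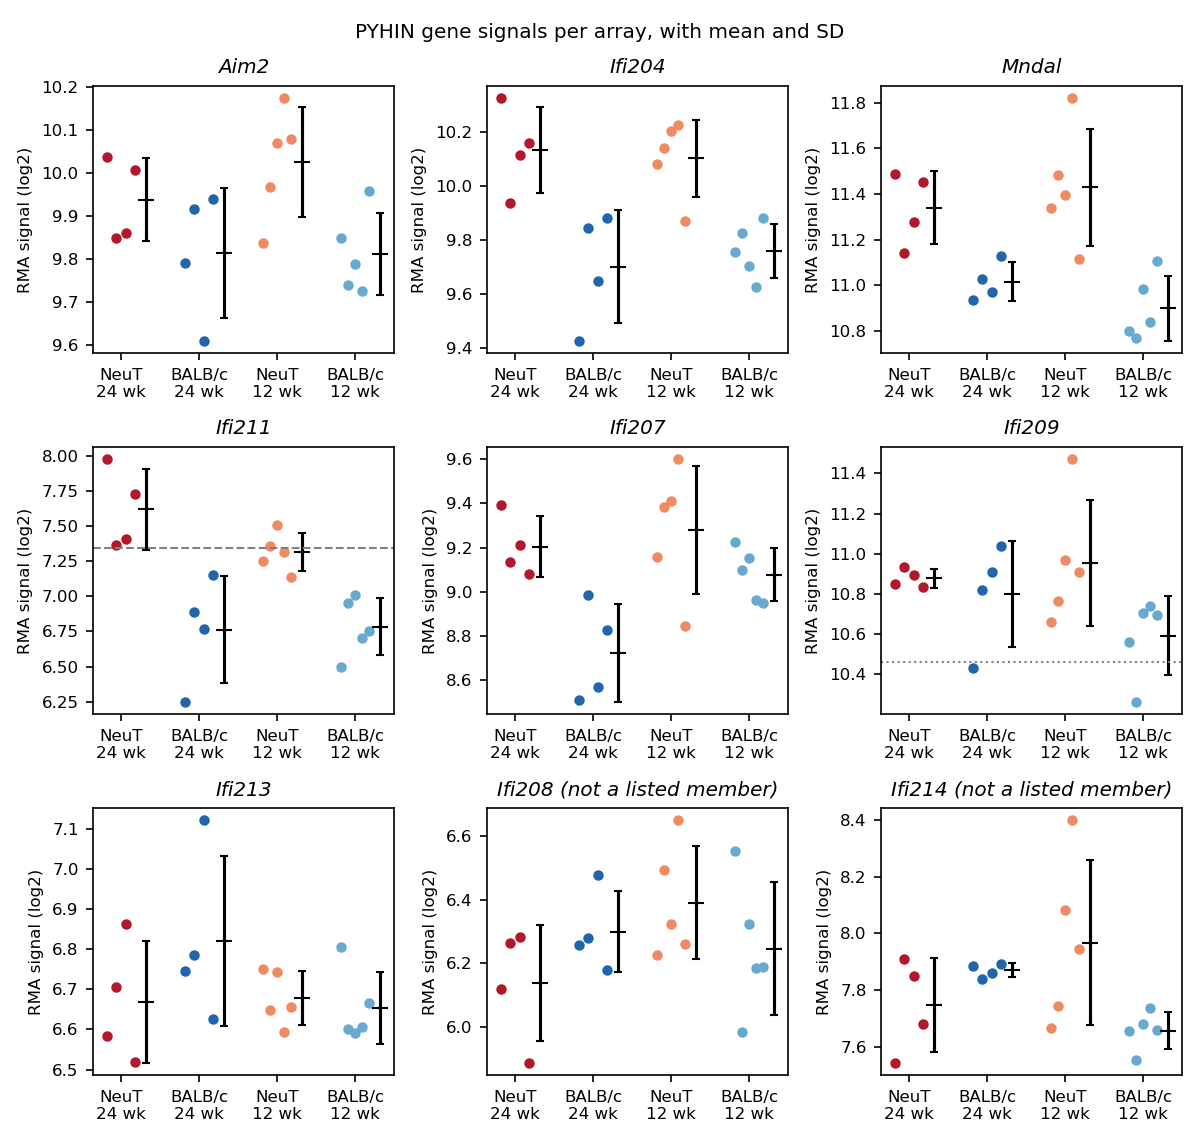
RMA log2 signal of the 7 measured members and of Ifi208 and Ifi214 on each array (points) by group, with the group mean and SD (black), 4 arrays per group at 24 weeks and 5 at 12 weeks; the dashed line is the negative control median and the dotted line their 95th percentile, drawn where they fall within the panel. NeuT points lie above all BALB/c points at 24 weeks for Ifi204, Ifi207, Ifi211 and Mndal, and at 12 weeks for Mndal and Ifi211.

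At 24 weeks Ifi211 and Ifi204 were higher in NeuT than in BALB/c preparations, 2 of the 7 measured members, against 1.18% of all genes tested that were called higher (limma, Benjamini-Hochberg adjusted p under 0.05 over all genes). None was called lower. The members' median log2 difference was 0.32, against -0.00014 over all genes, and 6 of 7 differences were positive. NeuT and BALB/c arrays did not overlap in 4 of the 7, with NeuT higher in each, against 4.95% of all genes.

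Ifi211, a family gene between Mndal and Ifi203 on the chromosome, read 7.97, 7.37, 7.41 and 7.72 in the 4 NeuT mice at 24 weeks, against 6.25, 6.89, 6.77 and 7.15 in the 4 BALB/c mice. The lowest NeuT array stood above the highest BALB/c array, and BALB/c replicate 1 was the dimmest of the 18. The means were 7.62 ± 0.29 in NeuT and 6.76 ± 0.38 in BALB/c mice (SD, n = 4 each). The log2 difference was 0.86 ± 0.15 (SE), with an adjusted p of 0.0186. It passed in 6 of the 8 fits that each left out 1 of the 8 arrays of 24 weeks, with log2 differences between 0.68 and 0.98. The call ended without NeuT replicate 1 and without NeuT replicate 4.

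Ifi204, the counterpart of human IFI16, read 10.32, 9.94, 10.11 and 10.16 in NeuT mice at 24 weeks, against 9.43, 9.84, 9.65 and 9.88 in BALB/c mice. The groups did not overlap, though the dimmest NeuT array and the brightest BALB/c array lay close together. Ifi204 averaged 10.13 ± 0.16 in NeuT and 9.70 ± 0.21 in BALB/c mice (SD, n = 4 each), a 1.35-fold rise in signal (log2 difference 0.43 ± 0.10 SE, adjusted p = 0.0404). It passed in 3 of the 8 fits without 1 array, and not after a further quantile normalisation (adjusted p = 0.0627) or cyclic loess (adjusted p = 0.0665).

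Ifi207, which is reported to act on cytokine transcription and on STING, read 9.39, 9.14, 9.21 and 9.08 in NeuT mice at 24 weeks, against 8.51, 8.99, 8.57 and 8.83 in BALB/c mice. The groups did not overlap. The log2 difference of 0.48 ± 0.13 (SE) did not pass (adjusted p = 0.0671). In the 8 fits without 1 array it lay between 0.41 and 0.57 and passed in 1, the fit without BALB/c replicate 2 (adjusted p = 0.0479).

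Mndal, named for its likeness to the human myeloid nuclear differentiation antigen, read 11.49, 11.14, 11.28 and 11.45 in NeuT mice at 24 weeks, against 10.93, 11.03, 10.97 and 11.13 in BALB/c mice. Only the second decimal separated the lowest NeuT from the highest BALB/c array. The log2 difference was 0.32 ± 0.12 (SE), with an adjusted p of 0.190.

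Aim2, the inflammasome sensor, read 10.04, 9.85, 9.86 and 10.01 in NeuT mice at 24 weeks, against 9.79, 9.92, 9.61 and 9.94 in BALB/c mice. The groups overlapped, and the log2 difference was 0.12 with a 95% interval of -0.060 to 0.31 (adjusted p = 0.581). Ifi209 spanned 10.83 to 10.93 in NeuT mice, within the BALB/c span of 10.43 to 11.04, and its difference was 0.078 (95% interval -0.22 to 0.37, adjusted p = 0.858). Ifi213, under the control median throughout, had a difference of -0.15 (adjusted p = 0.519). Outside the list, Ifi208 had -0.16 (adjusted p = 0.587) and Ifi214 -0.12 (adjusted p = 0.682), with overlapping groups. These misses do not show that the genes were alike in the 2 mouse models.

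At 12 weeks Mndal, Ifi211 and Ifi204 were higher in NeuT preparations, 3 of the 7 measured members, against 3.15% of all genes called higher. None was called lower. The median log2 difference was 0.34, against -0.025 over all genes, and 7 of 7 differences were positive. NeuT arrays lay above all BALB/c arrays for 2 of the 7, against 4.63% of all genes.

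Mndal read 11.34, 11.48, 11.39, 11.82 and 11.12 in the 5 NeuT mice at 12 weeks, against 10.80, 10.77, 10.98, 10.84 and 11.11 in the 5 BALB/c mice. NeuT replicate 4 was the brightest of the 18 arrays, while NeuT replicate 5 stood barely above the highest BALB/c array. The means were 11.43 ± 0.26 in NeuT and 10.90 ± 0.14 in BALB/c mice (SD, n = 5 each). Mndal rose 1.44-fold in signal (log2 difference 0.53 ± 0.10 SE, adjusted p = 0.00607) and passed in 10 of the 10 fits without 1 array of 12 weeks.

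Ifi211 read 7.25, 7.36, 7.51, 7.31 and 7.14 in NeuT mice at 12 weeks, against 6.50, 6.95, 7.01, 6.71 and 6.75 in BALB/c mice. The groups did not overlap. Its means were 7.31 ± 0.14 in NeuT and 6.78 ± 0.20 in BALB/c mice (SD, n = 5 each), with a log2 difference of 0.53 ± 0.14 (SE, adjusted p = 0.0329). It passed in 2 of the 10 fits without 1 array, where the adjusted p ran from 0.0213 to 0.0962.

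Ifi204 read 10.08, 10.14, 10.20, 10.22 and 9.87 in NeuT mice at 12 weeks, against 9.75, 9.82, 9.70, 9.62 and 9.88 in BALB/c mice. The groups overlapped by 1 array, since NeuT replicate 5 fell just under BALB/c replicate 5. The log2 difference was 0.34 ± 0.093 (SE, adjusted p = 0.0387). It passed in 2 of the 10 fits without 1 array, and not after quantile normalisation (adjusted p = 0.0528) or cyclic loess (adjusted p = 0.0501).

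Ifi209 read 10.66, 10.76, 10.97, 11.47 and 10.91 in NeuT mice at 12 weeks, against 10.56, 10.26, 10.70, 10.74 and 10.70 in BALB/c mice. NeuT replicate 4 stood well above the rest, and the groups overlapped by NeuT replicate 1, which lay within the BALB/c range. Its log2 difference of 0.36 ± 0.13 (SE) did not pass (adjusted p = 0.106). Aim2 spanned 9.84 to 10.17 in NeuT and 9.72 to 9.96 in BALB/c mice, a difference of 0.21 (adjusted p = 0.125), with overlap. Ifi207 spanned 8.84 to 9.60 in NeuT and 8.95 to 9.23 in BALB/c mice, a difference of 0.20 (adjusted p = 0.322). Ifi213 differed by 0.024 (adjusted p = 0.898). Of the PYHIN genes outside the list, Ifi214 had a difference of 0.31 (adjusted p = 0.0852) and Ifi208 of 0.14 (adjusted p = 0.444).

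Whether the NeuT difference itself changed with age was tested as the difference of the 24-week and the 12-week effects. No member passed, 0 of 7, against 0.0103% of all genes, and 0 of 7 had an unadjusted p under 0.05 in limma, against 6.50% of all genes. The estimates were 0.32 for Ifi211 (95% interval -0.10 to 0.75), 0.28 for Ifi207 (-0.080 to 0.64) and 0.088 for Ifi204 (-0.20 to 0.38). For Mndal the estimate was -0.21 (-0.53 to 0.11) and for Ifi209 -0.28 (-0.68 to 0.11). That Mndal passed at 12 weeks alone is therefore not shown to be a difference between the ages. Outside the list Ifi214 had a difference of effects of -0.43 (95% interval -0.75 to -0.11, unadjusted p = 0.0101 in limma). It did not pass (adjusted p = 0.711). For Ifi208 the estimate was -0.30 (-0.63 to 0.018).

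With age the members showed no call. Between 24 and 12 weeks 0 of 7 passed in NeuT mice, against 0.0359% of all genes called in either direction, and 0 of 7 in BALB/c mice, against 0.579%. In each mouse model 1 of 7 had an unadjusted p under 0.05 in limma, a share near that of all genes (12.6% in NeuT and 15.3% in BALB/c mice), so it is no result about the members. In NeuT mice this was Ifi211, with a value of 0.30 on the log2 scale (24 minus 12 weeks, adjusted p = 0.394). In BALB/c mice it was Ifi207, with 8.72 ± 0.22 at 24 weeks (SD, n = 4) and 9.08 ± 0.12 at 12 weeks (n = 5), a difference of -0.35 (adjusted p = 0.157). The labels give no processing batch, so age and any batch between the mice of the 2 ages cannot be told apart.

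Placed in chromosome order, from Aim2 over Ifi206, Ifi214, Ifi213, Ifi209, Ifi208, Ifi207, Ifi204, Mndal and Ifi211 to Ifi203, Ifi202b and Ifi205, the 4 genes whose arrays did not overlap at 24 weeks were neighbours among the measured genes: Ifi207, Ifi204, Mndal and Ifi211. Over all genes, 4.95% showed no overlap with NeuT higher at 24 weeks and 4.63% at 12 weeks. At 12 weeks only 2 of the 4, Mndal and Ifi211, did not overlap. The other 5 measured PYHIN genes overlapped at both ages. Among them Ifi209 (0.36) and Ifi214 (0.31) had larger differences at 12 weeks than Ifi207 (0.20). The grouping of the 4 thus holds at 24 weeks alone, was made after the values were seen and is a description. Of the 3 measured genes on each side of the cluster, Mptx2, Ackr1 and Cadm3 beyond Aim2 and Olfr433, Olfr432 and Olfr430 beyond Ifi205, none passed at either age. Only 1.18% of all genes were called higher at 24 weeks and 3.15% at 12 weeks. The count is therefore near the share of all genes and is no result about the flanks.

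**Figure D3:**
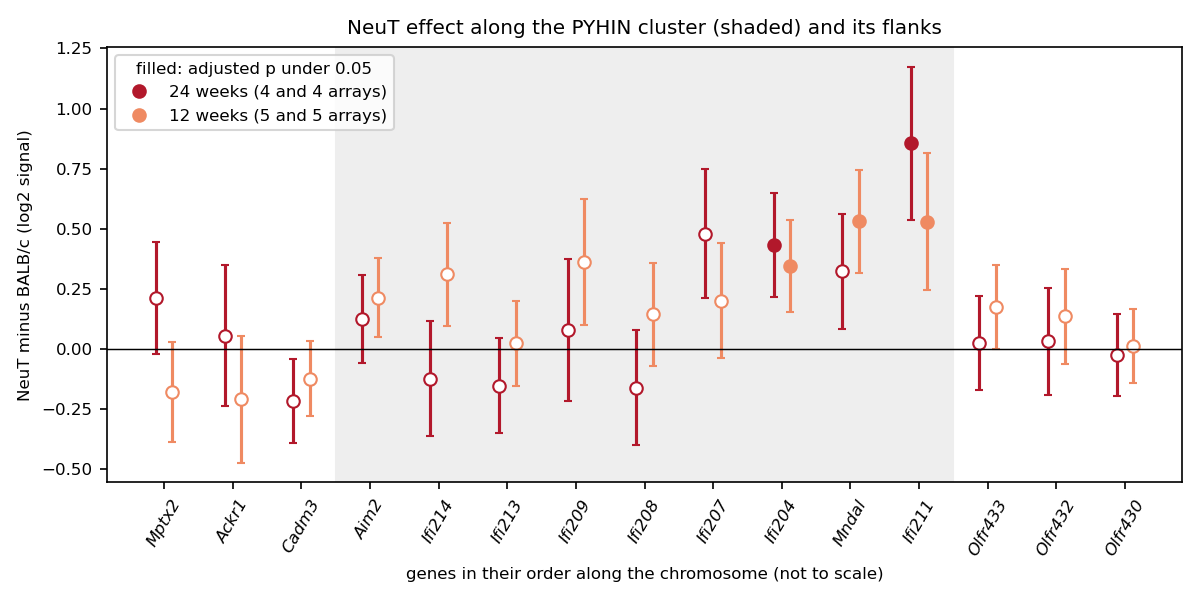
Log2 difference of NeuT minus BALB/c at 24 weeks (dark) and 12 weeks (light) for measured genes in chromosome order, with 95% intervals; filled points passed the adjusted p threshold and the shaded band is the PYHIN cluster. The filled points are Ifi204 and Ifi211 at both ages and Mndal at 12 weeks, and the intervals of Ifi213 and Ifi208 span 0 at both ages.

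Arrays of a group varied together in some members and not in others. After each gene was centred on its group means, the correlation over the 18 arrays was 0.77 for Ifi204 with Ifi211, 0.73 for Ifi204 with Ifi207, 0.68 for Ifi204 with Mndal and 0.73 for Ifi209 with Ifi214. Ifi213 had negative values with each other measured member, among them -0.58 with Aim2 and -0.39 with Ifi211. These arrays share preparation, scaling and cell content, and the values are descriptions. The 6 genes most like the mean of the measured members by the same measure were Arpc5, Capza2, Tyrobp, Cd200r1, Fuca1 and Bcap31, with Pearson correlations of 0.93, 0.92, 0.91, 0.91, 0.90 and 0.90 in that order. Their Spearman correlations lay between 0.80 and 0.92. Without the 2 arrays farthest from the median, replicate 1 of the 24-week BALB/c mice and replicate 4 of the 12-week NeuT mice, Pearson's r ran from 0.82 for Fuca1 to 0.93 for Cd200r1. Tyrobp encodes a signalling adaptor of myeloid and natural killer cells and Cd200r1 an inhibitory receptor of myeloid cells. The rest of the 6, with Arpc5 and Capza2 first, were not sorted by cell type, and no cell type is read from the set.

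Genes that act beside the members were taken from lists. The list of 14 inflammasome genes holds partners and effectors of Aim2 and also genes of other inflammasomes, so it is not a reading of Aim2 alone. Of all genes 1.18% were called higher at 24 weeks and 3.15% at 12 weeks. Of the 14, 4 rose in NeuT mice at 24 weeks and 7 at 12 weeks, and none fell (median log2 differences of 0.36 and 0.36). At 24 weeks these were Nlrp1b (0.57, adjusted p = 0.0243), Casp4 (0.55, adjusted p = 0.0426), Naip2 (0.46, adjusted p = 0.0293) and Mefv (0.42, adjusted p = 0.0427). At 12 weeks the sensor Nlrp3 differed by 0.98 (adjusted p = 0.00132), the cytokine gene Il1b by 0.74 (adjusted p = 0.0113), Casp1 by 0.49 (adjusted p = 0.0419) and Naip5 by 0.48 (adjusted p = 0.0177).

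Of 12 measured DNA-sensing genes, which include the pathway that Ifi204 acts on, none passed at 24 weeks in limma, where 6 had an unadjusted p under 0.05, against 13.2% of all genes at 24 weeks and 21.0% at 12 weeks. The kinase gene Ikbke had a value of 0.34 (adjusted p = 0.0990) and the receptor gene Tlr9 -0.56 (adjusted p = 0.151). At 12 weeks 4 of the 12 rose and none fell, against 3.15% of all genes called higher. The 4 were Sting1, the adaptor of cytosolic DNA sensing (0.80, adjusted p = 0.00134), the sensor Cgas (0.50, adjusted p = 0.00144), Samhd1 (0.39, adjusted p = 0.0244) and Zbp1 (0.35, adjusted p = 0.0430). Of 10 RNA-sensing genes Dhx58 rose at 24 weeks (0.49, adjusted p = 0.0271), where 1.18% of all genes were called higher. At 24 weeks 7 of the 10 had an unadjusted p under 0.05 in limma, against 13.2% of all genes. Positive were 9 of the 10 differences, with a median of 0.27. None of the 10 passed at 12 weeks, where 3 had an unadjusted p under 0.05 in limma, near the 21.0% of all genes, and Tlr3 had 0.38 (adjusted p = 0.105) and Ticam1 0.26 (adjusted p = 0.131).

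Interferon pathway genes were read in 3 lists. The shares of all genes called higher were 1.18% at 24 weeks and 3.15% at 12 weeks. Of 13 interferon receptor and signalling genes none passed at either age, while 3 at 24 weeks and 1 at 12 weeks had an unadjusted p under 0.05 in limma, against 13.2% and 21.0% of all genes. At 24 weeks Socs1, an inhibitor of the pathway, had a value of -0.31 (adjusted p = 0.0682) and Ifngr1 of 0.27 (adjusted p = 0.124). At 12 weeks Socs1 had -0.21 (adjusted p = 0.107) and Ptpn2 0.12 (adjusted p = 0.274). Of 24 interferon-stimulated genes 3 rose at 24 weeks (Ifi44l 0.92, adjusted p = 0.0396, Oas1a 0.67, adjusted p = 0.0204, and Rtp4 0.66, adjusted p = 0.0372) and 5 at 12 weeks (among them Ifi44l 0.79, Trim30a 0.70, Rtp4 0.60 and Oas1a 0.53), with median log2 differences of 0.19 and 0.12. Of 11 guanylate-binding and immunity-related GTPase genes Tgtp2 rose at 12 weeks (0.69, adjusted p = 0.0200). None of the 11 passed at 24 weeks, where 3 had an unadjusted p under 0.05 in limma (13.2% of all genes did), with 0.51 for Tgtp2 (adjusted p = 0.190) and -0.33 for Gbp9 (adjusted p = 0.236).

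Markers of some blood cell types also differed between NeuT and BALB/c preparations. For comparison, 1.18% of all genes were called higher at 24 weeks and 3.15% at 12 weeks. Called lower were 43 of the 19505 genes at 24 weeks and 134 at 12 weeks. The array mean of 14 monocyte and macrophage markers spanned 9.29 to 9.69 in NeuT and 9.10 to 9.28 in BALB/c mice at 24 weeks, and 9.27 to 9.62 in NeuT and 9.07 to 9.22 in BALB/c mice at 12 weeks, with no overlap at either age, though narrowly at 24 weeks. Of these markers 1 rose at 24 weeks (Ly6c2, 0.44), and at 12 weeks 6 rose (among them Ccr2, 1.25, and Ms4a6c, 0.97) and 1 fell. Positive differences numbered 11 of the 14 at 24 weeks and 12 of the 14 at 12 weeks. C1qb and C1qc went the other way at both ages. At 12 weeks C1qc averaged 7.38 in NeuT and 7.70 in BALB/c mice, and C1qb 7.94 and 8.15. At 24 weeks C1qa averaged 6.52 and 6.66, C1qb 8.03 and 8.05, and C1qc 7.51 and 7.59. The mean of 15 neutrophil markers, of which 6 rose at 24 weeks (Ltf 1.82 and Mmp9 1.07 among them) and 5 at 12 weeks (Mmp8 1.81 and Ltf 1.52 among them), spanned 11.56 to 12.25 in NeuT and 11.17 to 11.54 in BALB/c mice at 24 weeks, and 11.33 to 12.26 in NeuT and 11.15 to 11.61 in BALB/c mice at 12 weeks. The mean of 12 B-cell markers spanned 9.69 to 10.84 in NeuT and 10.87 to 11.17 in BALB/c mice at 24 weeks, where Spib fell by 1.24, and 9.43 to 10.89 in NeuT and 10.83 to 11.05 in BALB/c mice at 12 weeks, where none of the 12 passed and 8 had an unadjusted p under 0.05 in limma (21.0% of all genes did). Of 14 T and NK cell markers 1 rose and 3 fell at 24 weeks (Gzma fell by 1.33 and Cd2 by 1.03), and 1 rose at 12 weeks (Nkg7, 0.34). Only 4 of the 14 differences were positive at each age, with medians of -0.32 at 24 weeks and -0.13 at 12 weeks. Vcam1 of 13 stromal markers rose at 24 weeks (0.47), and Cdh5 of 8 endothelial markers fell by 0.54 at 12 weeks. Of 7 megakaryocyte and platelet markers none passed. At 12 weeks, though, all 7 differences were negative (median -0.31) and 6 had an unadjusted p under 0.05 in limma (21.0% of all genes did). Their array mean spanned 9.75 to 10.23 in NeuT and 10.30 to 10.61 in BALB/c mice at 12 weeks, without overlap, and 10.06 to 10.54 in NeuT and 10.08 to 10.19 in BALB/c mice at 24 weeks. Of the 11 dendritic cell and 7 erythroid markers none passed at either age, with median differences between -0.28 and 0.13. In limma 2 of the 11 dendritic cell markers had an unadjusted p under 0.05 at each age, and of the 7 erythroid markers 1 at 24 weeks and 2 at 12 weeks. These counts lie near the shares of all genes (13.2% at 24 weeks and 21.0% at 12 weeks), so they are no result about the markers.

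The differences of the members called were smaller with these means in the model. With the neutrophil and B-cell means as covariates 0 of 7 members passed at either age, and the differences of Ifi211 were 0.54 at 24 weeks and 0.28 at 12 weeks. Mndal then had 0.26 at 12 weeks, Ifi204 0.21 at 24 weeks and 0.16 at 12 weeks. With the monocyte and macrophage mean as the covariate, a setting chosen after seeing the data, 0 of 7 passed as well. Ifi211 then had 0.44 at 24 weeks and -0.031 at 12 weeks, Ifi204 0.17 and -0.018, and Mndal -0.0070 and 0.084. These covariates differ between the groups themselves, and the part of cell content in the members' differences was not tested.

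The calls at 24 weeks changed with the arrays in the fit, and why they did was not tested. The arrays that correlated least with the others were replicate 4 of the 12-week NeuT mice (median 0.987), replicate 3 of the 24-week BALB/c mice (0.988) and replicate 1 of the 24-week NeuT mice (0.991). Without these 3, 0 of 7 members passed at 24 weeks, with Ifi211 at 0.74 (adjusted p = 0.146) and Ifi204 at 0.35 (adjusted p = 0.295), and 2 of 7 at 12 weeks, Mndal and Ifi211. Leaving out NeuT 24-week replicate 1 alone, or replicate 4 alone, also left 0 of 7 at 24 weeks. In a fit of the 24-week groups alone 0 of 7 passed (Ifi211 adjusted p = 0.109, Ifi204 adjusted p = 0.149) with the same differences.

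**Figure D4:**
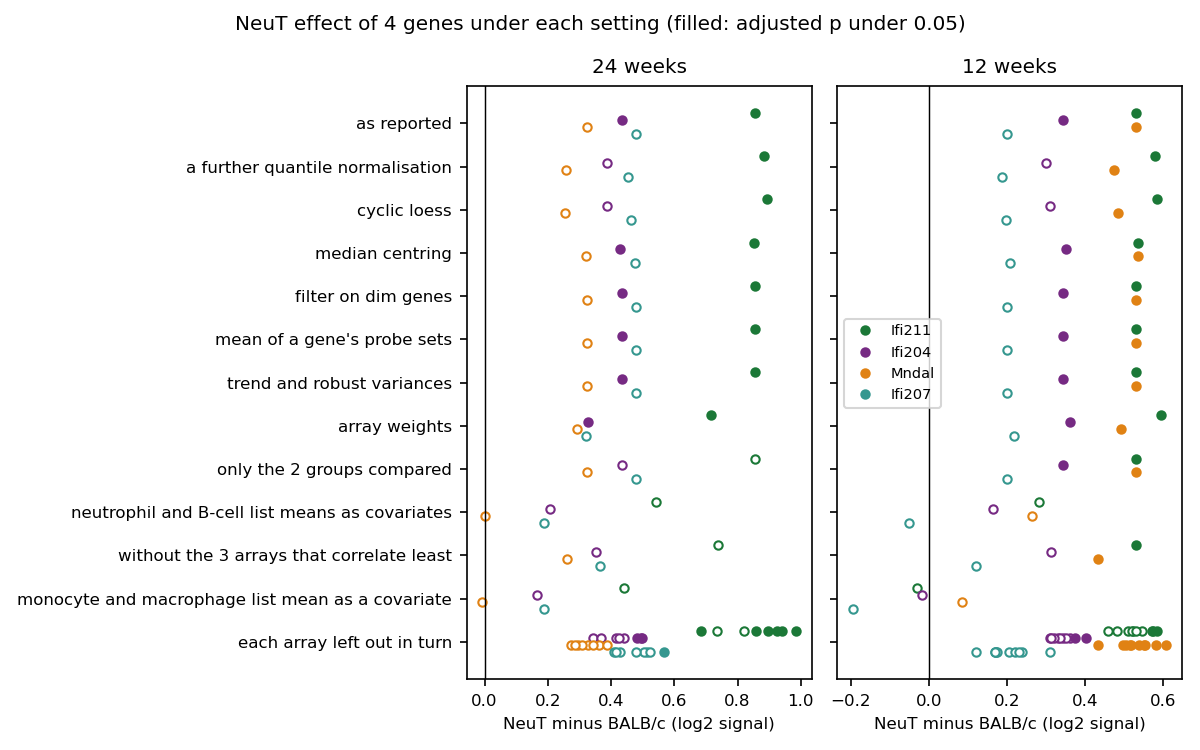
Log2 difference of NeuT minus BALB/c for Ifi211, Ifi204, Mndal and Ifi207 at 24 weeks (left) and 12 weeks (right) as reported and under each other setting; filled points passed the adjusted p threshold, and the lowest row holds 1 point per array left out. Differences are smallest with marker list means as covariates, where no point is filled.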

How the data were processed

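The authors deposited log2 signals per probe set of 18 arrays, made with RMA (background correction, quantile normalisation and summarisation) and the Transcriptome Analysis Console, per the submitters' processing notes, with versions and build not given in the sources used here. Of 29129 probe sets 19572 had 1 gene symbol, and the probe set of highest mean was kept for the 55 genes with several, which left 19505 genes. Array medians ran from 8.43 to 8.56. Each gene was fitted with a mean for each of the 4 groups with limma 3.58.1 in R 4.3.3 (14 residual and 8.68 prior degrees of freedom), two-sided, Benjamini-Hochberg adjusted over all genes at 0.05, and checked on simulated data. Replicates are different mice, numbered in accession order. Members, lists and tests were chosen with earlier results of these data known. Named were all members and other PYHIN genes measured, per pathway list and NeuT contrast the 4 largest changes that passed, otherwise the 2 smallest p, per marker list up to 2, and the 6 genes most like the members' mean. Genes named to check the cell label, C1qa, C1qb and C1qc among the macrophage markers, and the genes flanking the cluster lie outside this rule. Promoters were aligned with Biopython 1.88 in Python 3.11.15, and identity is over aligned bases. Alternatives were 3 scalings, a filter on dim genes, the mean of probe sets, trend and robust variances, array weights, fits of 2 groups, covariates and left-out arrays. The number of arrays limits the precision.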

Additional observations from a re-analysis of the deposited data

How the results depend on the processing

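The count of 2 members higher in NeuT mice at 24 weeks was 1 with cyclic loess and with a further quantile normalisation. It was 0 in the fit of only the 2 groups, with neutrophil and B-cell list means as covariates, without the 3 arrays that correlate least, and with the monocyte and macrophage list mean as a covariate (chosen after seeing the data). Without each array in turn it ran from 0 to 3. The count of 3 members at 12 weeks was 0 with either covariate setting and ran from 1 to 3 without each array in turn. The difference of effects and both age contrasts stayed at 0 members without each array in turn. With the 95th percentile of the controls in place of their median, 1 member rather than 5 lay above them on every array. Signs turned for 8 values, none of them past the threshold when turned. With the monocyte and macrophage mean these were Ifi209 (-0.13) and Mndal (-0.0070) at 24 weeks, and Ifi204 (-0.018), Ifi207 (-0.20) and Ifi211 (-0.031) at 12 weeks. With the neutrophil and B-cell means they were Ifi214 at 24 weeks (0.0093) and Ifi207 at 12 weeks (-0.052), and without BALB/c 24-week replicate 1 it was Ifi209 at 24 weeks, whose values without 1 array ran from -0.045 to 0.16. The cause was not tested. No paired analysis was possible because the labels give no replicate numbers shared between the groups. Signals near or under the negative control median limit Ifi211, Ifi213, Ifi208 and Ifi214.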
